A study of Mus musculus with 8 samples.

Results

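Islet cells in which the transcripts of more than a single hormone were abundant, here called bihormonal cells, made up 62 of the 1232 pancreatic islet cells kept from 8 samples. A cell was selected on its own unique molecular identifiers (UMIs, the counted transcript molecules). It was taken as bihormonal when Ins1 and Ins2 together held at least 20% of its UMIs and Gcg, Sst or Ppy held at least 5%, or when 2 or more of Gcg, Sst and Ppy held at least 5% each. Cells with more than 3000 genes or 20000 UMIs had been set aside, which removed 8 of 1240 cells, none of which met the hormone rule. Because these 5 transcripts chose the cells, their levels in bihormonal against other cells are a description and carry no test. A cell that passed the limit for a single hormone is named after it: a beta cell for insulin, an alpha cell for Gcg, a PP cell for Ppy and a delta cell for Sst.

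The samples came from 8-week-old male C57BL/6J mice, and the study used partial pancreatectomy (PPTx) to examine which genes accompany the replication of beta cells. Both groups had 4 samples. The PPTx samples were islets left 2 days after removal of 50% of the pancreas, on the splenic side, and the control islets came from mice that had no operation. Each sample pooled the hand-picked, enzymatically dispersed islets of 1 to 3 mice, so the spread between samples is a spread between pools, and the part of the pancreas sampled and the operation cannot be told apart. The files held 65 to 294 kept cells per sample, with sample medians of 3328 to 8677 UMIs per cell and no kept cell below 2005 UMIs. One barcode occurred in 2 samples, and it was not a bihormonal cell.

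In the adult mouse islet, each endocrine cell usually makes a dominant hormone. Beta cells release insulin, which lowers blood glucose, and alpha cells release glucagon from Gcg, which raises it. Delta cells release somatostatin, which restrains both neighbours, and PP cells release pancreatic polypeptide, a regulator of food intake and of pancreatic secretion. In droplet-based single-cell data, a droplet that caught a pair of cells and RNA free in the suspension can both give a second hormone to a barcode, and cells that truly make more than 1 hormone are also known, so the depth, the level of the second hormone and the other markers are given beside each kind of cell.

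All 62 bihormonal cells carried exactly a pair of abundant hormones, and Ppy was part of the pair in most of them. Gcg with Ppy (alpha/PP) was found in 31 cells, 50% of the total. Insulin with Ppy (beta/PP) was found in 14 cells and Ppy with Sst (PP/delta) in 11. Insulin with Gcg (beta/alpha) was found in only 4 cells and insulin with Sst (beta/delta) in 2, although beta cells were by far the most numerous cells, at 923 of 1232. No cell paired Gcg with Sst. The cells with a single abundant hormone comprised, besides the beta cells, 125 PP cells, 98 alpha cells and 8 delta cells, and 16 cells had none. Among the 21 cells rich in Sst, the 11 that were also rich in Ppy outnumbered the 8 with Sst alone.

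**Figure D1:**
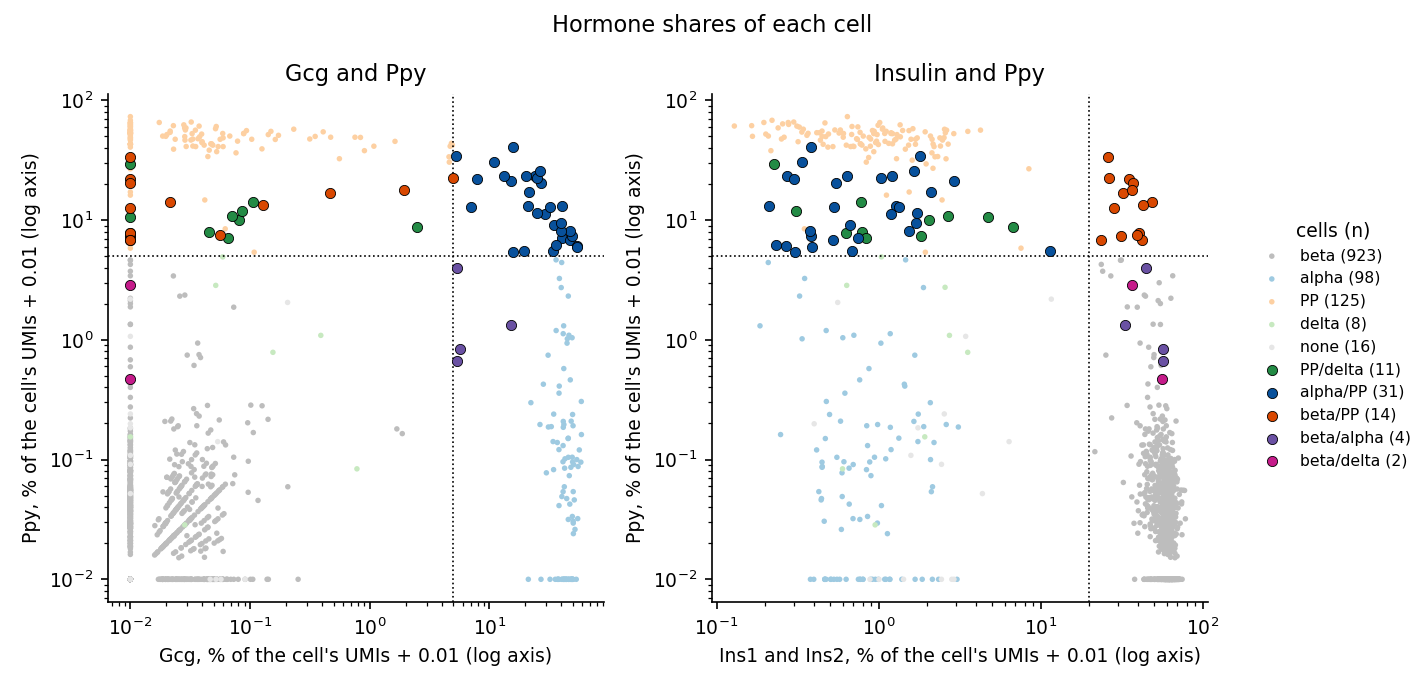
Share of each cell's UMIs from Ppy against that from Gcg (left) and from Ins1 and Ins2 (right), both axes logarithmic with 0.01 added, for all 1232 cells. Large outlined points are the 62 bihormonal cells, small points are cells with at most a single abundant hormone, and dotted lines are the selection limits; the 31 alpha/PP cells fill the upper right corner of the left panel and the 14 beta/PP cells that of the right panel.

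The 31 alpha/PP cells covered a wide range of both hormones. Gcg made up 5.26% to 54.0% of a cell's UMIs, with a median of 26.7%, and Ppy 5.41% to 41.0%, with a median of 12.8%. The median Gcg share of alpha cells was 43.8% and the median Ppy share of PP cells was 49.1%, so both medians were lower in alpha/PP cells. Both are shares of the same total, so requiring a second hormone lowers the share of the first in part by construction. Gcg exceeded Ppy in 23 of the 31 cells. In the control samples this held for 11 of 13 alpha/PP cells and in the PPTx samples for 12 of 18. The highest Ppy share belonged to a cell of PPTx 4, with 41.0% Ppy and 15.8% Gcg, and the highest Gcg share to a cell of control 3, with 54.0% Gcg and 5.90% Ppy. One alpha/PP cell of PPTx 2 also held 11.4% insulin transcripts and 4.70% Iapp in 8284 UMIs, whereas the median insulin share of the 31 cells was 0.653%.

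The 14 beta/PP cells held 23.5% to 48.5% insulin transcripts, with a median of 35.7%, and 6.74% to 33.7% Ppy, with a median of 13.7%. Only 1 of them, from PPTx 4, had more Ppy (33.7%) than insulin transcripts (26.0%). One beta/PP cell of PPTx 2 held 4.99% Gcg, just below the limit, beside 22.4% Ppy and 26.3% insulin transcripts, in 9222 UMIs. The 11 PP/delta cells held 7.01% to 32.9% Sst (median 22.8%) and 7.01% to 29.4% Ppy (median 9.93%). Among the beta/alpha cells, 3 of 4 lay close to the limit, with Gcg at 5.34%, 5.37% and 5.71%, and the fourth, from PPTx 2, had 15.1% Gcg in 10596 UMIs. The 2 beta/delta cells had 5.98% and 8.96% Sst.

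The level of each hormone in cells of other types gives the background, although the rule itself kept those cells under the limits. In beta cells, the sample medians of the Ppy share ran from 0% to 0.0491% and those of the Gcg share from 0% to 0.0194%. In alpha cells, the sample medians of the Ppy share ran from 0% to 1.24% over the 6 samples with at least 3 such cells, the highest coming from the 4 alpha cells of PPTx 3. Insulin transcripts were the most widespread background, with sample medians of 0.254% to 1.80% in PP cells and 0.218% to 1.92% in alpha cells. A pooled background was also subtracted from each cell's hormone shares, namely the sample's median over all cells with a different single hormone. It left the mean share of bihormonal cells in both groups unchanged. For Gcg, Sst and Ppy the pooled cells were mostly beta cells, so the higher Ppy level in the alpha cells of PPTx 3 was not removed.

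The Ppy share did not split the cells rich in Gcg or in insulin transcripts into clear classes at 5%. Of 133 cells rich in Gcg, 89 had under 1% Ppy, 7 had 1 to 2%, 6 had 2 to 5%, 13 had 5 to 10%, 7 had 10 to 20% and 11 had 20% or more. Of 943 cells rich in insulin transcripts, 910 had under 1% Ppy, 19 lay between 1% and 5%, and 14 lay above. Just outside the limit, the highest Ppy share in a cell rich in Gcg was 4.64%, and just inside, the lowest was 5.41%. For cells rich in insulin transcripts, the corresponding Ppy shares were 4.62% and 6.74%, and for cells rich in Sst they were 4.91% and 7.01%. Sst in the 181 cells rich in Ppy did leave a gap, with no cell between 1.80% and 7.01%: 170 cells lay below it and the 11 PP/delta cells above. Insulin transcripts in the cells rich in Ppy left a gap too, with no cell between 11.4% and 23.5%, and the 14 beta/PP cells lay above it.

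The next comparison set the UMIs of bihormonal cells against those of the cells around them. Beta cells were a parent type only of the pairs with insulin, not of the alpha/PP and PP/delta cells, so the comparison with beta cells places the depth of the bihormonal cells and does not by itself bear on captured pairs of cells. The median UMI count of bihormonal cells was below that of the beta cells in all 7 samples with at least 3 bihormonal cells. It was 4131 against 5591 in control 2, 4844 against 10441 in control 3 and 4496 against 7203 in control 4. It was 4727 against 7859 in PPTx 1, 5142 against 5192 in PPTx 2, 3987 against 9601 in PPTx 3 and 3482 against 3673 in PPTx 4. The mean log2 ratio was -0.62 ± 0.48 (SD, n = 7), 0.652-fold, with p = 0.0156 in a two-sided exact sign-flip test over samples, the smallest value 7 samples allow. In PPTx 2 and PPTx 4 the medians nearly coincided, and with the limit for Gcg, Sst and Ppy raised to 10% the ratio was -0.38 (log2) over 5 samples (exact p = 0.25), lower in 3 of them.

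Against the PP, alpha and delta cells of the same samples, the UMI counts of bihormonal cells differed by less than the spread between samples. The mean log2 ratio was -0.04 ± 0.42 (SD, n = 7; exact sign-flip p = 0.828), with bihormonal cells higher in 5 samples and lower in PPTx 1 and PPTx 3. With the 10% limit it turned to 0.31 over 5 samples (exact p = 0.25), lower in 1 of them. Without the hormone transcripts that defined them, bihormonal cells had 0.836 times the UMIs of beta cells (log2 ratio -0.26 ± 0.40, SD, n = 7; exact sign-flip p = 0.141). Their number of detected genes was 0.841 times that of beta cells (log2 ratio -0.25 ± 0.28, SD, n = 7; exact sign-flip p = 0.0625). Without PPTx 4, these ratios were -0.36 and -0.32 on the log2 scale, each with an exact p of 0.0312.

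Set against its own parent types, no bihormonal cell had as many UMIs as the medians of its pair of types added together in its sample. This count was 0 of 31 for alpha/PP cells, 0 of 14 for beta/PP, 0 of 8 for PP/delta, 0 of 4 for beta/alpha and 0 of 1 for beta/delta, over the cells whose sample held both types. Among the alpha/PP cells, 3 lay above the medians of both types, 16 between them and 12 below both. The beta/PP cells fell into 7 above and 7 below both medians. Compared with the deeper of its parent types in each sample, the median of the alpha/PP cells was lower in 8 of 8 samples (mean log2 ratio -0.47) and that of the beta/PP cells in 4 of 6 (-0.25). The samples held 1 to 9 alpha/PP cells. With the limit for Gcg, Sst and Ppy at 10%, the alpha/PP ratio was -0.35, lower in 5 of 7 samples. The beta/PP ratio rested on the limits: it was 0.10 over 5 samples with the limit for Gcg, Sst and Ppy at 10%, and 0.41, higher in 4 of 4, with the insulin limit at 30% as well. The deepest bihormonal cells were a beta/delta cell of control 4 with 11217 UMIs, against a sum of medians of 11485.5, and the beta/alpha cell of PPTx 2 with 10596 UMIs, against 11361.5. No pair had 3 cells beside 3 of each parent type in enough samples for a test, so these values are a description.

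**Figure D2:**
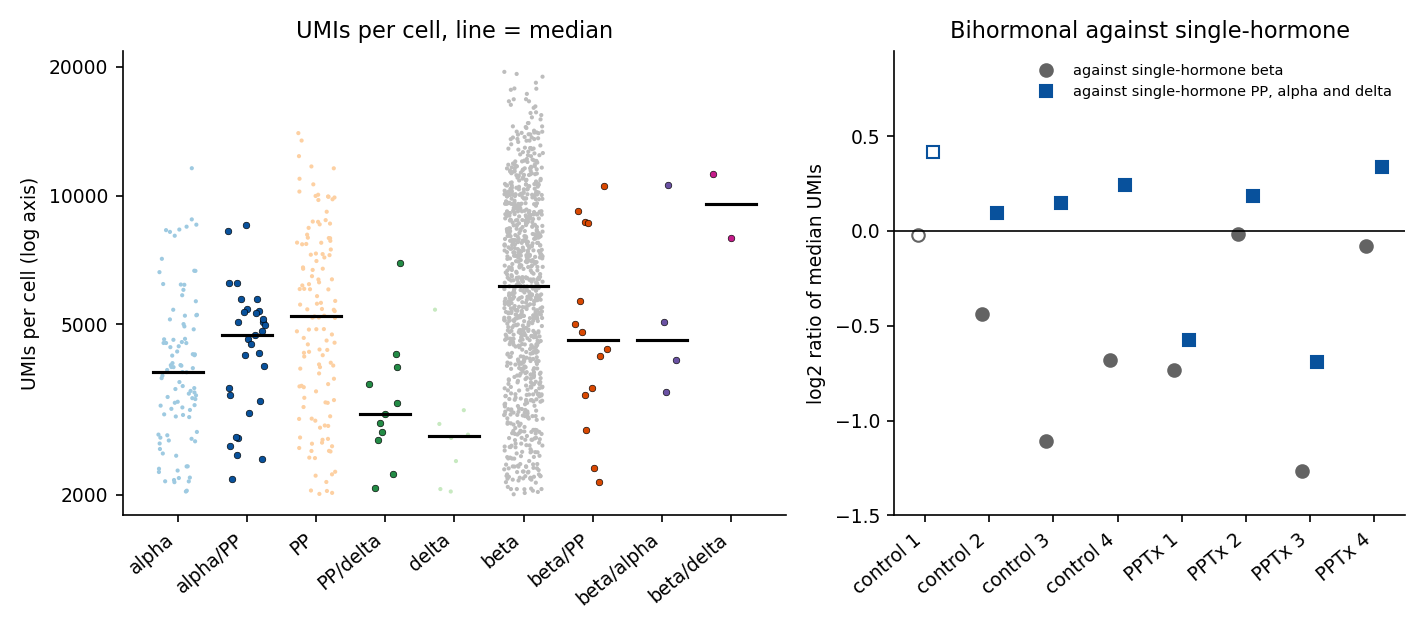
Left: UMIs of every cell (logarithmic axis) by the hormones it was rich in, with a line at the median; alpha/PP cells had a median of 4727 UMIs and beta/PP cells of 4600. Right: log2 ratio of the median UMIs of bihormonal cells to those of beta cells (circles) and of PP, alpha and delta cells (squares) in each sample; the open symbols mark control 1, which had 2 bihormonal cells and was not tested, and all circles lie below 0.

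A doublet caller that compares each cell with simulated mixtures (Scrublet) called 7 of the 62 bihormonal cells. They were 2 of 31 alpha/PP cells, 4 of 14 beta/PP cells and 1 of 2 beta/delta cells, and no PP/delta or beta/alpha cell was called. The calls were unstable. Run sample by sample, it called 95 of all 1232 cells, but 33 of them were among the 65 cells of control 1. Run on all samples together, it called 4 of 1232 cells, of which 3 were bihormonal, 2 beta/PP and 1 beta/alpha.

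Several markers that differ between alpha and PP cells stood at an intermediate level in the alpha/PP cells. Levels are given as UMIs per 10000 UMIs outside Ins1, Ins2, Gcg, Sst and Ppy, pooled over cells. Ttr, which encodes the carrier transthyretin and is abundant in alpha cells, stood at 759 in alpha cells, 330 in alpha/PP cells and 44.8 in PP cells. Irx2, an alpha cell homeobox gene, stood at 3.70, 2.71 and 0.509 in the same order. Slc7a2, a transporter of cationic amino acids, stood at 8.24, 6.32 and 1.498. Pyy, which encodes peptide YY of the same peptide family as Ppy, ran the other way, at 285 in alpha cells, 1152 in alpha/PP cells and 2277 in PP cells. The pooled alpha level of Pyy was mostly that of control cells, 87 of 98. By sample it was 119 to 281 in control alpha cells and 298 to 1734 in PPTx alpha cells. Tspan8, a tetraspanin, followed Pyy with 0.267, 3.22 and 13.5. Gc, the vitamin D carrier, was alike in the 3 kinds, at 8.91, 7.35 and 8.31, as was Etv1, at 3.92, 3.22 and 3.25.

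Pyy was detected in all 31 alpha/PP cells, all 14 beta/PP cells and all 11 PP/delta cells, but its level varied between samples. Detection was also common in cells with a single hormone: all 125 PP and all 8 delta cells, 91 of 98 alpha cells and 349 of 923 beta cells had a Pyy UMI. In the alpha/PP cells of control 3 (9 cells), PPTx 2 (7 cells), PPTx 3 (6 cells) and PPTx 4 (3 cells), the Pyy level was 1023, 765, 1357 and 1777. In the alpha cells of control 3 and PPTx 2 it was 125 and 298, below the alpha/PP cells of the same sample. In PPTx 3 the 4 alpha cells had 1214 and in PPTx 4 the only alpha cell had 1734, both close to the alpha/PP cells. Ttr in the alpha/PP cells of the same 4 samples was 366, 188, 551 and 243, against 792, 671 and 587 in the alpha cells of the first 3 and 57.8, 34.0 and 32.8 in their PP cells. Ttr was not intermediate everywhere: in the 2 alpha/PP cells of control 4 it was 47.8, below the 65.6 of that sample's PP cells.

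Beta/PP cells carried beta cell transcripts, mostly at reduced levels, beside Pyy and Tspan8 of PP cells. Iapp, the islet amyloid polypeptide that beta cells release with insulin, stood at 1196 in beta cells, 759 in beta/PP cells and 101 in PP cells. G6pc2, a glucose-6-phosphatase subunit of beta cells, stood at 49.2, 30.8 and 1.87. Ucn3, a peptide of mature beta cells, stood at 13.1, 4.72 and 0.226, and Ero1lb, an oxidase for disulfide bonds in the endoplasmic reticulum, at 26.2, 18.6 and 1.55. Slc30a8, the zinc transporter of insulin granules, stood at 10.7, 7.21 and 1.22. Nkx6-1, a beta cell transcription factor, was at 3.61 in beta/PP and 3.16 in beta cells, and at 0.820 in PP cells. Pyy stood at 579 in beta/PP cells, against 12.1 in beta cells, and Tspan8 at 5.55 against 0.584. The other listed PP genes were near the beta level. Etv1 was at 0.555 (2 UMIs) against 0.164 in beta and 3.25 in PP cells, and Cd9 at 0.277 (1 UMI) against 0.0896 and 2.46. These levels pool 14 cells, 7 of them from PPTx 2, where Pyy was 638 and Tspan8 2.97. Over the 6 samples, which held 1 to 7 beta/PP cells, Pyy ran from 129 to 1181, Tspan8 from 2.48 to 15.9 and Iapp from 518 to 875. G6pc2 was uneven, at 0 in control 4 and PPTx 1 and 90.0 in control 1. It was detected in 10 of 14 beta/PP cells, against 904 of 923 beta cells. Ucn3 was at 0 in control 1, control 4 and PPTx 1, and highest in PPTx 2, at 8.32. Mafa and Pdx1, which define beta cells by name, were close to absent from these counts, with 2 and 42 UMIs in the 923 beta cells and none in the beta/PP cells, so they could not check the label.

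PP/delta cells held transcripts of delta cells beside those of PP cells. Hhex, a transcription factor that is specific to delta cells in the islet, stood at 4.09 in PP/delta cells (10 UMIs in 4 of 11 cells) and 2.67 in delta cells (4 UMIs in 3 of 8 cells), and had 1 UMI in the 125 PP cells. The Hhex UMIs were uneven: 5 came from the 2 PP/delta cells of control 2, 3 from control 3 and 2 from PPTx 4, and the 3 cells of control 4 and the 2 of PPTx 3 had none. Rbp4, the retinol carrier, stood at 47.4 in PP/delta, 42.7 in delta and 2.94 in PP cells, and was detected in all 11 PP/delta cells. Pyy was at 1069 in PP/delta cells, between 711 in delta and 2277 in PP cells, and Tspan8 at 10.2, between 2.00 and 13.5. Cd9, a tetraspanin, had no UMI in PP/delta cells, against 2.46 in PP cells (87 UMIs in 54 of 125 cells). Its level of 3.34 in delta cells came from a single cell (5 UMIs in 1 of 8 cells). Iapp was at 316 in PP/delta and 297 in delta cells, against 101 in PP cells. That PP level mixed 10.8 to 16.3 in the control samples with 31.7 to 191 in the PPTx samples. Of the PP/delta cells, 8 of 11 were from control samples, as were 6 of 8 delta cells, but only 30 of 125 PP cells. The comparison rests on 11 and 8 cells.

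**Figure D3:**
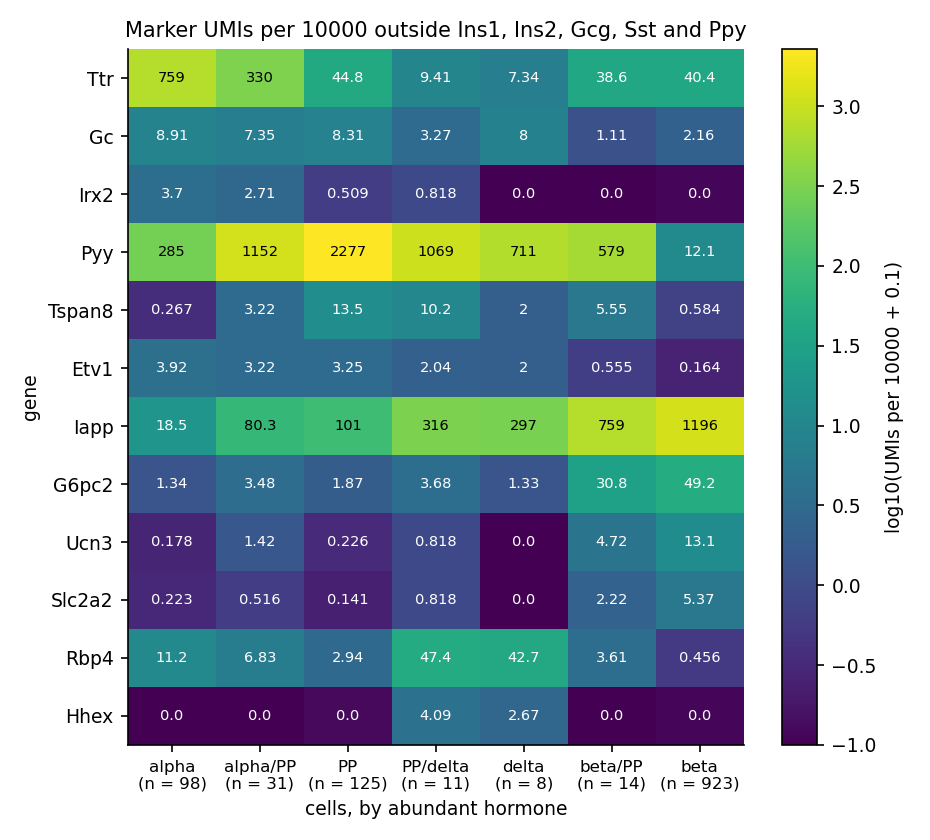
Level of 12 islet marker genes in UMIs per 10000 outside the 5 hormone transcripts of the selection, pooled over the cells of each kind (columns, with the number of cells); colour is the logarithm of the level plus 0.1. Ttr falls from 759 in alpha through 330 in alpha/PP to 44.8 in PP cells while Pyy runs the other way, and Hhex has a level above 0.1 only in the PP/delta and delta columns.

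Genes that told the parent types apart were then read in the bihormonal cells. These sets were drawn from the cells with a single hormone, after the data had been seen, as genes with at least a 4-fold difference in pooled level, a level of 2 or more, and an unchanged direction across the samples that held 3 cells of both types. In alpha/PP cells, 13 of 16 alpha genes and 9 of 9 PP genes lay between both types. The alpha genes stood at a median of 55.2% of the way from PP to alpha cells, and the PP genes at 26.8% of the way from alpha to PP cells. In beta/PP cells, 53 of 58 beta genes and 24 of 27 PP genes lay between, at medians of 56.9% and 25.03% of the way. Over both sets, 77 of 85 genes lay between in beta/PP cells and 22 of 25 in alpha/PP cells. Scaled to all UMIs, 68 and 22 did, and with cells thinned to 1000 UMIs outside the hormones, 60 and 19 did.

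Taken cell by cell, most alpha/PP cells were high for the genes of a single parent type, and most beta/PP cells for those of both. Each set was summed without its most abundant gene (Ttr, Pyy or Iapp), and a cell counted as high when it exceeded the 95th percentile of the opposite type. Of the 31 alpha/PP cells, 21 were high for the alpha genes alone, 6 for the PP genes alone, 3 for both sets and 1 for neither. The limits themselves place about 5% of each parent type above the limit of the other set, and 5 of 98 alpha and 4 of 125 PP cells were high for both. The 21 cells with the alpha genes had 5.41% to 30.3% Ppy. Over all 31 alpha/PP cells, the alpha genes had a median of 0.451% of the UMIs outside the 5 hormones. This was below the lower quartile of the alpha cells, 0.573%. The 6 with the PP genes had a median of 17.7% Gcg. All 14 beta/PP cells were high for the beta genes, and 8 of them were also high for the PP genes. The counts for the parent types, 46 of 923 beta and 7 of 125 PP cells, again follow from how the limits were set. These 8 came from 6 samples and had a median of 5341 UMIs (3551 to 10540) and 19.2% Ppy. The other 6 came from PPTx 2 and PPTx 3 and had a median of 3123.5 UMIs (2143 to 8627) and 7.68% Ppy. The sets of the alpha and PP comparison hold few transcripts per cell, which limits the call for a single shallow cell. The PP genes had a median of 0.0411% of the UMIs outside the 5 hormones in alpha cells. With every cell thinned to 1000 UMIs outside the hormones, a UMI from both sets was found in 16 of 31 alpha/PP cells, 41 of 97 alpha cells and 74 of 121 PP cells, so presence alone did not set the alpha/PP cells apart. The same held for the beta and PP sets, with 14 of 14 beta/PP, 723 of 859 beta and 112 of 121 PP cells. The difference between the kinds was not tested.

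**Figure D4:**
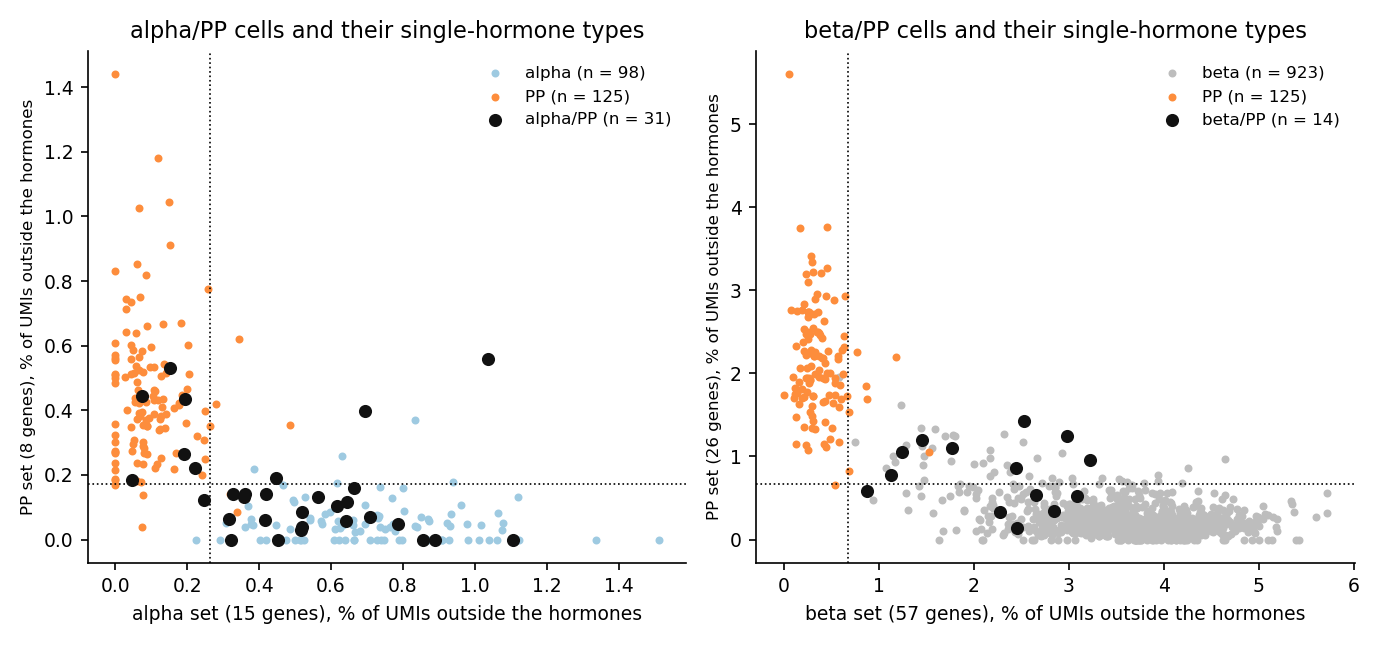
Share of each cell's UMIs outside the 5 hormones that came from the genes of either parent type, for alpha/PP cells with alpha and PP cells (left) and beta/PP cells with beta and PP cells (right). Dotted lines are the 95th percentiles of the opposite type; black bihormonal points fall mostly along the alpha arm on the left, with 3 of 31 in the upper right corner, and 8 of 14 are in that corner on the right.

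Immune, endothelial, stellate and blood markers were at or near 0 in the bihormonal cells. No UMI of 7 immune, 6 endothelial or 6 stellate markers was found in beta/PP or PP/delta cells. Alpha/PP cells had 1 immune, 5 endothelial and 4 stellate UMIs over 31 cells, and no blood marker was detected in any kind. Acinar markers summed to 0.516 per 10000 in alpha/PP, 0.555 in beta/PP and 2.04 in PP/delta cells, against 0.771 in beta, 0.223 in alpha, 1.19 in PP and 0 in delta cells. Ductal markers summed to 0.258, 0.832 and 2.45 in the same bihormonal kinds, against 0.677 in beta, 0.980 in alpha, 4.66 in PP and 0 in delta cells. The 16 general endocrine genes summed to 473 in alpha/PP, 516 in beta/PP and 456 in PP/delta cells, within the range of 371 in PP to 540 in beta cells. Single genes of this list were not all intermediate: Chga, the granule protein chromogranin A, stood at 142 in alpha/PP cells, above alpha (125) and PP cells (99.1), and Isl1, an islet transcription factor, at 2.19, below both (5.52 and 3.76). Ghrl, which marks the ghrelin-producing epsilon cell, had no UMI in any of the 62 cells. Of 5 genes of endocrine progenitors or immature cells, none had a UMI in beta/PP cells, and they summed to 1 UMI each in alpha/PP and beta/alpha cells and to 5 UMIs in PP/delta cells. The PP/delta level was 2.04 per 10000, against 0.0283 in PP, 0.0818 in beta and 1.33 in delta cells. Of these 5 UMIs, 4 were from Sox9, a transcription factor of ducts and progenitors, in 3 of the 11 cells. Sox9 is also in the ductal list and had no UMI in the PP, alpha or delta cells. Of 10 replication genes, the bihormonal cells had 1 UMI in an alpha/PP cell and 13 UMIs in a single beta/alpha cell, the PPTx 2 cell with 10596 UMIs and 2517 genes. Immediate early genes, which respond to handling, summed to 34.0 in alpha/PP and 19.4 in beta/PP cells, against 34.8 in alpha, 44.0 in PP and 7.46 in beta cells. Genes of endoplasmic reticulum stress summed to 38.3 in both alpha/PP and alpha cells, and to 61.3 in beta/PP cells against 88.0 in beta and 40.4 in PP cells. These pooled levels mix the groups unequally. Of the alpha cells, 87 of 98 came from control samples, while 95 of 125 PP, 18 of 31 alpha/PP and 12 of 14 beta/PP cells came from PPTx samples.

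The share of bihormonal cells did not separate PPTx from control islets. This share of all cells was 3.08%, 4.90%, 6.42% and 4.22% in control 1 to control 4 and 2.40%, 5.10%, 8.15% and 4.43% in PPTx 1 to PPTx 4. The groups overlapped. Control samples averaged 4.65% ± 1.40 (SD, n = 4) and PPTx samples 5.02% ± 2.38 (SD, n = 4), a difference of 0.367 percentage points (two-sided exact permutation p = 0.8). The difference was -0.159 points without control 1 and -0.676 without PPTx 3. Pooled over samples, bihormonal cells were 26 of 520 control cells (95% exact Clopper-Pearson interval 3.29% to 7.24%) and 36 of 712 PPTx cells (3.57% to 6.93%), intervals that cover counting error only. With the limit for Gcg, Sst and Ppy at 10%, the shares were 1.48% in control and 2.91% in PPTx, a difference of 1.43 points (exact permutation p = 0.0857). Of the cells rich in Gcg, Sst or Ppy, bihormonal cells made up 17.7% ± 2.11 in control samples and 24.9% ± 9.27 in PPTx samples (SD, n = 4 each; exact permutation p = 0.229).

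Alpha/PP cells were 1.54%, 0.980%, 4.81% and 1.20% of the cells in the control samples and 1.6%, 2.38%, 4.44% and 1.90% in the PPTx samples. Control 3, with 9 of the 13 control alpha/PP cells, stood apart from the other controls. The means were 2.13% ± 1.80 (SD, n = 4) and 2.58% ± 1.28 (SD, n = 4; exact permutation p = 0.543), and the difference turned to -0.174 points when PPTx 3 was left out. Among the pairs taken as shares of all cells, only this one reached the 20 cells required for a test. Beta/PP cells numbered 1, 0, 0 and 1 in the control and 1, 7, 2 and 2 in the PPTx samples, 0.535% ± 0.727 against 1.48% ± 0.663 (SD, n = 4 each). PP/delta cells numbered 0, 2, 3 and 3 in control and 0, 0, 2 and 1 in PPTx. By the limit of 3 counts, a count of 0 allowed a share of up to 2.94% among the 102 cells of control 2 and 1.604% among the 187 of control 3 (upper ends of the two-sided exact interval 3.55% and 1.95%), so an absence of beta/PP cells there could not be told from a low share.

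The composition around the bihormonal cells differed between the groups. Cells with Gcg alone averaged 14.6% ± 7.14 in control samples against 1.64% ± 0.974 after PPTx, and cells with Ppy alone 5.74% ± 3.02 against 13.05% ± 2.46 (SD, n = 4 each). Neither overlapped between the groups, each with an exact permutation p of 0.0286, the smallest that 4 against 4 samples allow. These p-values were not adjusted. The shares of cells with insulin alone (73.2% in control, 78.2% in PPTx) and with Sst alone (1.45% and 0.285%) overlapped between the groups and were not tested.

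Among the cells rich in Gcg, the share also rich in Ppy separated the groups, but the comparison did not pass adjustment. This share was 1 of 6, 1 of 14, 9 of 54 and 2 of 28 cells in control 1 to control 4, and 2 of 4, 7 of 12, 6 of 10 and 3 of 5 in PPTx 1 to PPTx 4. The groups did not overlap, with control samples at 11.9% ± 5.50 and PPTx samples at 57.1% ± 4.79 (SD, n = 4 each; exact permutation p = 0.0286). Pooled, it was 13 of 102 control cells (12.7%, exact 95% interval 6.96% to 20.8%) and 18 of 31 PPTx cells (58.1%, 39.1% to 75.5%). It was picked after the counts had been seen, as 1 of 6 such conditional shares, and after Benjamini-Hochberg adjustment over the 6 the permutation p was 0.171. With 4 against 4 samples, a lone complete separation among 6 shares cannot give a smaller adjusted value, so the design did not allow this share to pass. The numbers of alpha and PP cells moved with it, in opposite directions, and their part in the result was not tested. The reverse share, of Gcg-rich cells among those rich in Ppy, was 23.5% ± 19.2 in control and 14.3% ± 5.12 in PPTx (SD, n = 4 each; exact permutation p = 0.543). Ppy-rich cells were 0.666% ± 0.866 of the insulin-rich cells in control and 1.86% ± 0.856 in PPTx (SD, n = 4 each; exact permutation p = 0.114, adjusted 0.343). That share rested on the 14 beta/PP cells, because the minimum of 20 cells was not applied to the conditional shares.

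**Figure D5:**
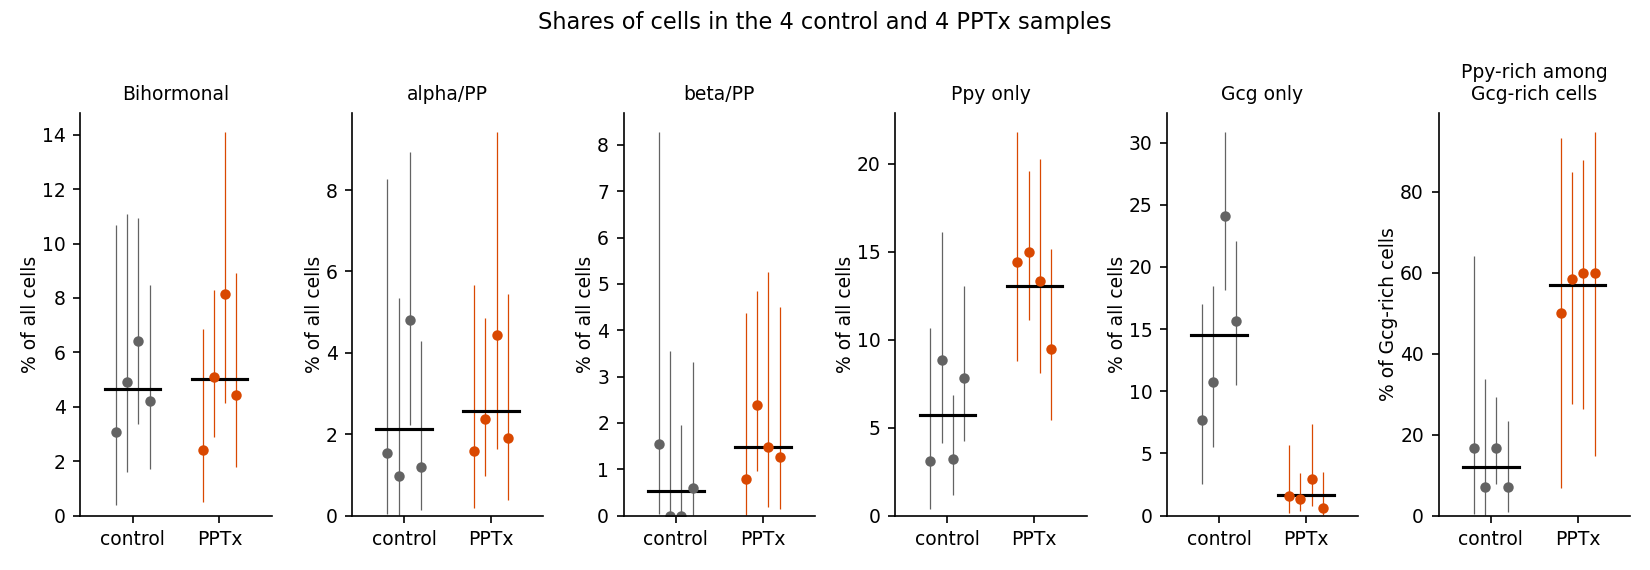
Shares in each sample of bihormonal cells, of alpha/PP and beta/PP cells, of cells with Ppy alone or Gcg alone, and of Ppy-rich cells among those rich in Gcg, for 4 control (grey) and 4 PPTx (orange) samples. Points are samples with exact 95% binomial intervals and black lines are means; the groups overlap for bihormonal, alpha/PP and beta/PP cells and separate in the last 3 panels.

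Within the alpha/PP cells, the median Gcg share was 34.5% over the 13 control cells and 21.2% over the 18 PPTx cells, and the median Ppy share 8.10% and 12.9%. Of the 21 alpha/PP cells high for the alpha genes alone, 10 were from control and 11 from PPTx samples. Of the 6 high for the PP genes alone, 1 was from control and 5 from PPTx. These are descriptions of few cells, and 9 of the 13 control cells came from control 3.

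No gene passed the test between PPTx and control in the bihormonal cells. Counts were summed over the bihormonal cells of each sample and tested with the edgeR quasi-likelihood method. Of 164 genes tested, which included the 5 hormone transcripts of the selection, 0 had a Benjamini-Hochberg adjusted p below 0.05 (0.00% of the genes), 10 had an unadjusted p below 0.05 (6.10%), and DESeq2 gave 0 and 7. The samples of the 2 groups did not overlap for 4 genes (2.44%). By chance, 4 against 4 samples separate completely at a rate of 0.0286, so this share was near that of chance. Of the 4 genes, Pdia6, Ddost and Meg3 had the lowest adjusted p, and these were singled out after their values were seen. Pdia6, a protein disulfide isomerase, had 155 to 352 CPM (counts scaled to a common library size) in control and 413 to 649 in PPTx (log2 ratio 1.04 ± 0.35, SE; edgeR adjusted p = 0.5). Ddost, a subunit of the enzyme that attaches sugars to new secretory proteins, had 147 to 258 and 363 to 620 CPM (1.18 ± 0.39, SE; edgeR adjusted p = 0.5). Meg3, a long noncoding RNA, had 1327 to 1733 and 462 to 1203 CPM (-0.91 ± 0.27, SE; edgeR adjusted p = 0.5). The low CPM of Pdia6 and Ddost rest on very few UMIs. Control 1 summed 2 cells of 2430 and 4392 UMIs, so a single UMI moved its CPM widely. Among the hormones, Pyy had a log2 ratio of 0.56 ± 0.56 (SE) and Iapp of 0.12 ± 0.54 (SE), both with an edgeR adjusted p of 0.994. The summed cells numbered 2, 5, 12 and 7 in control and 3, 15, 11 and 7 in PPTx, and they mixed pairs in unequal proportions: Sst, for example, ran from 48.4 to 78833 CPM between samples.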

How the data were processed

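Single-cell RNA sequencing of dispersed islets was analysed in 8 samples. The deposited tables hold raw UMI counts per gene and cell; per the labels and methods, the authors aligned reads to mm10 and counted UMIs with Cell Ranger. The methods name the ddSEQ system and the labels a Chromium kit. The authors' methods drop cells with more than 3000 genes or 20000 counts, or with very few of either; the deposited tables still held cells above these limits and none below 2005 UMIs. Doublet removal is not given in the sources used here. All 24421 genes of 1240 cells were used; library totals ran from 236645 to 1580152 UMIs.

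Hormone shares were taken over all UMIs of a cell. Shares were compared between 4 PPTx and 4 control samples by exact permutation, and depths by exact sign flips over samples with at least 3 cells of each kind. Counts summed per sample went into the quasi-likelihood test of edgeR 4.0.16, after its own expression filter and TMM scaling, with Benjamini-Hochberg adjustment, and into DESeq2 1.42.0 (R 4.3.3). The scripts were first tested on simulated data. Scrublet was run in scanpy 1.11.5 (expected rate 0.06). The genes named were the hormones, up to 5 genes per marker list with the most UMIs in their own type, a few defining transcription factors, and any called gene; some of these are not reported here. The cells, marker lists and this rule were chosen with earlier results of these data known. Replicate numbers were taken only as names of samples.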

Additional observations from a re-analysis of the deposited data

Results flagged for a closer look

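In each group of 4 samples the highest or lowest sample was compared with the others by the gap to its nearest neighbour as a part of the whole range. Of 46 groups looked at, 6 stood out. Chance gives about 1 in 20 for continuous values, a rate that does not hold where the other 3 samples are at 0, as for beta/alpha and beta/delta cells and for Ppy in PPTx 3 below. Control 3 had the highest share of alpha/PP cells, 4.81% against 0.980% to 1.54% in the other controls; it also had the largest share of cells with Gcg alone, 24.1%. In PPTx 3, 75% of the cells with Gcg alone, 3 of 4 cells, had at least 1% Ppy. PPTx 1 had the lowest PPTx share of Ppy-rich cells among those rich in Gcg, 50% or 2 of 4 cells. Control 2 held 1.96% beta/alpha cells (2 cells), where the other controls had none. Beta/delta cells were 0.602% of control 4 and 0.741% of PPTx 3, 1 cell each, and were found in no other sample.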

How the results depend on the processing

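The share of bihormonal cells did not pass between PPTx and control under any of 17 alternatives (exact p from 0.0857 to 0.943). Its difference ran from -0.676 to 1.24 percentage points when samples were left out in turn, and that of alpha/PP cells from -0.174 to 1.34. With 10% for the other hormones, the PP/delta difference moved from -0.814 to 0.0861 points, and with 30% insulin as well the beta/PP difference moved from 0.947 to 0.214. With 10% insulin, a single cell with 3 hormones appeared (0.085 points), the alpha/PP cell of PPTx 2 with 11.4% insulin transcripts.

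The lower UMI count against beta cells was -0.38 and -0.39 (log2) with the 10% limits, over 5 samples, where no p can pass. Against PP, alpha and delta cells it turned to 0.31 and 0.28 with those limits, and ran from -0.0991 to 0.0722 when samples were left out. Left out in turn, samples gave -0.36 to -0.17 for UMIs outside the hormones and -0.32 to -0.19 for genes per cell, both against beta cells. Genes per cell passed with 10% insulin (-0.25, exact p = 0.0469). The cause was not tested. The beta/PP ratio to the deeper parent type moved from -0.25 to 0.41 with 30% insulin and 10% for the other hormones together.

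A replicate block, as paired sign flips over the shared replicate numbers, left the share of Ppy-rich among Gcg-rich cells at 45.2 points but with an exact p of 0.125, the smallest 4 pairs allow; the bihormonal share had p = 0.625 and edgeR called 0 genes, as in all 15 alternatives. Deviations of samples sharing a number correlated at 0.0164 to 0.178. Controls 1, 3 and 4 correlated best with the PPTx sample of their own number, and control 2 did not. The correlations were low and the numbers were not taken as pairs, but a shared batch behind them was not tested. The share of Ppy-rich among Gcg-rich cells, its alternatives (35.5 to 47.5 points) and the Scrublet alternatives were chosen after seeing the data. Scrublet called 3 rather than 7 bihormonal cells when run on all samples together. Cells were few, and depth limits the calls on single cells.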
